A study of Rattus norvegicus with 15 samples.

Results

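In rat abdominal aorta, 72 of 41871 transcripts were present in every normotensive library and below 0.5 in every library of the untreated hypertensive strain. For treated rats of the hypertensive strain, values were listed for only 10 of the 72, each with a mean of at least 0.5 in those rats. Of these 10, 9 reached 1 in at least 1 library of treated rats. Wistar Kyoto (WKY) is the normotensive strain, and the spontaneously hypertensive rat (SHR) was bred from Wistar Kyoto stock by selection for high blood pressure. The transcripts were chosen by 2 thresholds on the deposited abundance, at least 1 in all 5 WKY libraries and below 0.5 in all 5 SHR libraries. A total of 73 transcripts met both (0.174% of those listed for WKY and SHR), and 1 of them was left out because its locus was excluded by the choice. The difference between WKY and SHR in these 72 transcripts was therefore fixed by the choice and is described below without a test.

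RNA sequencing was run on 15 libraries in 3 groups of 5, all from the abdominal aorta. WKY and SHR rats received double distilled water for 10 weeks, and a group of SHR rats (SHR+Nef) received neferine, an alkaloid of the lotus seed, at 10 mg/kg per day for 10 weeks. No label gives the age or sex of the rats or says that each library came from a separate rat, so the p-values measure only the spread between these samples, which may be technical. Abundance is a fractional value per transcript whose unit (FPKM or TPM) is not named, so depth in reads is unknown and an exact 0 can be a failed estimate. SHR 4 stood apart, with 8259 of 39097 transcripts at 0 against 2560 to 3739 in the other 14 libraries, and without it 77 transcripts met the thresholds.

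A gene locus is usually transcribed into several isoforms, which differ in their promoter, their splice sites or the site where the transcript ends. A transcript can therefore be lost in a strain while the locus stays active through another isoform, or the locus as a whole can fall silent. In RNA sequencing the isoforms of a locus share many of their reads, and an estimator divides those reads among them, so the values of such isoforms are not independent of each other. In bulk tissue, fewer cells of a type and less RNA per cell cannot be told apart.

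The files name transcripts in 2 ways, with Ensembl rat transcript IDs or with the prefix MERGE and a pair of numbers, taken here as the locus and the isoform of a transcript assembly. They do not pair IDs with gene names, and 0 IDs matched the gene table at hand, so the transcripts are given by ID and the markers of the tissue were not checked. Of the 72 transcripts, 61 were assembled isoforms from 51 loci and 11 were Ensembl transcripts. Assembled isoforms made up 84.7% of the 72, compared with 66.8% of all transcripts listed for WKY and SHR and 48.4% of the 15516 transcripts with at least 1 in all 5 WKY libraries. The mirror choice, at least 1 in all SHR and below 0.5 in all WKY libraries, gave 39 transcripts, of which 82.1% were assembled.

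Most of the 72 transcripts were of low abundance in WKY. Their mean over the 5 WKY libraries had a median of 2.65 and ranged from 1.18 to 14.9, with 21 above 5 and 18 below 2. The 15516 transcripts with at least 1 in all WKY libraries had a median of 5.83. The 72 transcripts summed to 278 to 338 in the WKY libraries and to 3.29 to 5.57 in the SHR libraries. In SHR, 27 were listed at 0 in all 5 libraries, 14 at 0 in 4 libraries and 13 at 0 in none, and the highest SHR mean was 0.414. The number at 0 was 42, 42, 47, 48 and 45 in SHR 1 to 5, so SHR 4 was the highest but lay close to SHR 3. The coefficient of variation across the WKY libraries had a median of 32.9% (range 6.28% to 154%), beside 25.9% for the 11683 transcripts in the same range of WKY means.

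**Figure D1:**
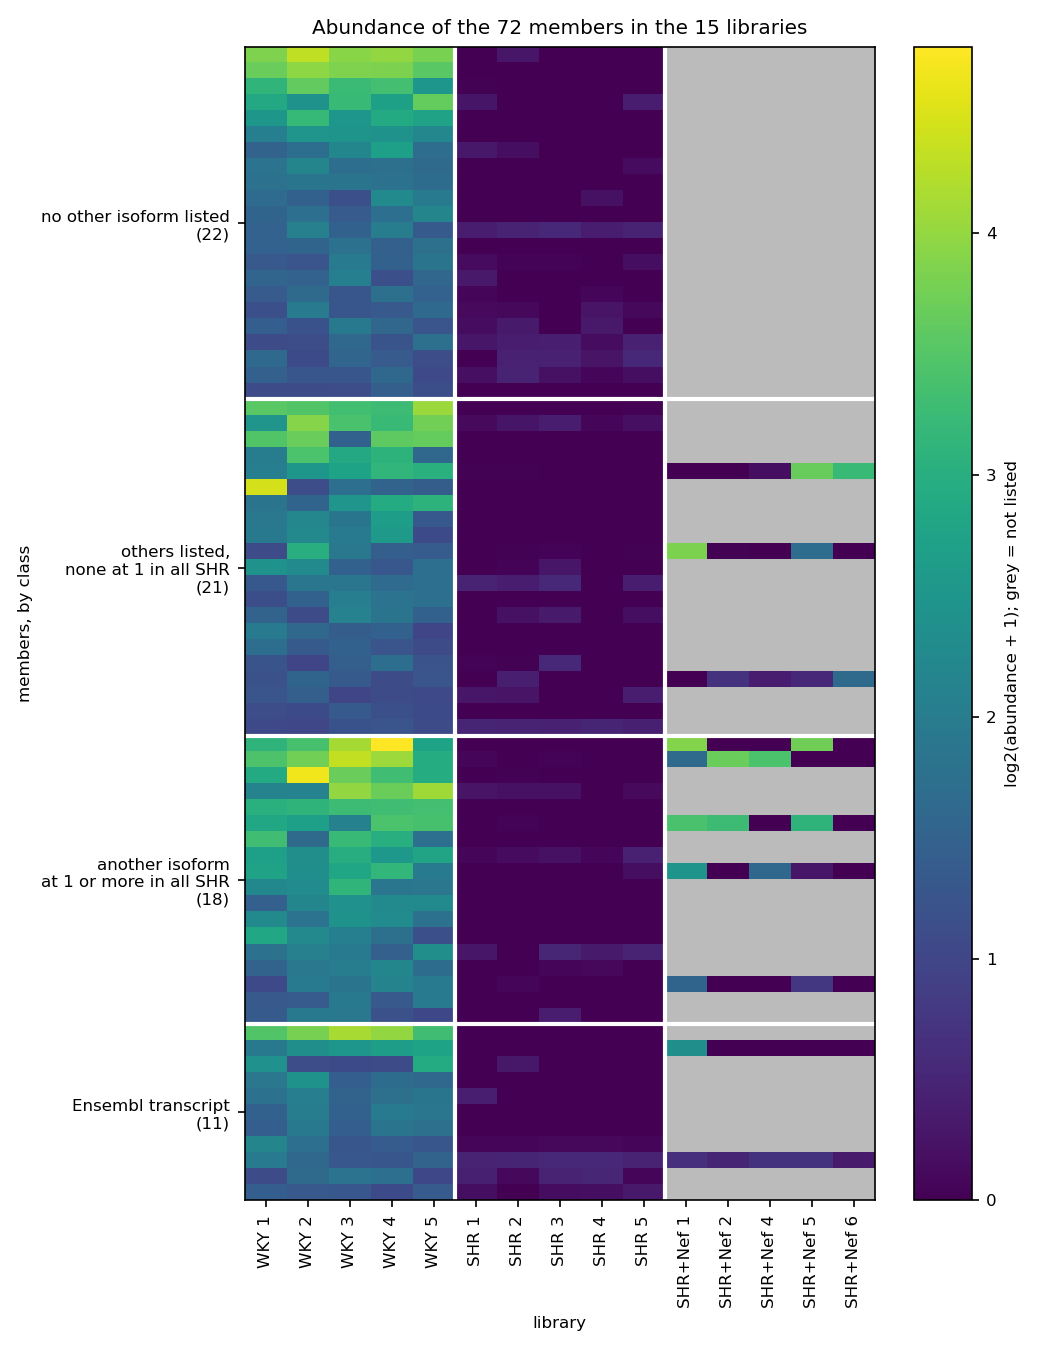
Abundance of each of the 72 transcripts (rows) in each of the 15 libraries (columns), on the log2(value + 1) scale, with grey where the transcript is not listed for SHR+Nef. Rows are grouped by what else is listed at the locus and sorted by WKY mean. The 5 WKY columns are bright and the 5 SHR columns dark by the choice of transcripts, and 9 of the 10 rows with SHR+Nef values reach 1 in some SHR+Nef libraries and not in others.

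The assembled isoform with the highest lowest value in WKY was MERGE.8496.1, the single listed isoform of its locus. It stood at 13.4, 18.8, 14.2, 14.96 and 13.0 in WKY 1 to 5, and in SHR at 0.219 in SHR 2 and 0 in the other 4 libraries. MERGE.18411.1, also the single listed isoform of its locus, stood at 11.7, 14.6, 13.4, 13.2 and 10.7 in WKY 1 to 5 and at 0 in all 5 SHR libraries. For both, the 5 WKY values lay close together, with a mean of 14.9 ± 2.34 and 12.7 ± 1.49 (SD, n = 5). MERGE.7423.1 stood at 10.7, 10.2, 8.98, 8.63 and 15.6 in WKY and at 0 to 0.0163 in SHR. MERGE.3999.2 stood at 7.15, 7.58, 8.67, 8.87 and 9.18 in WKY and at 0 in all SHR libraries, while another isoform of its locus was present in SHR, as described below.

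Among Ensembl transcripts, ENSRNOT00000044520 was the most abundant, at 10.1, 12.8, 16.7, 14.96 and 8.86 in WKY 1 to 5 and at 0 in all SHR libraries. The 10 other Ensembl transcripts had WKY means of 1.47 to 4.57, so it stood well above them. ENSRNOT00000088437 was at 2.81, 4.17, 4.68, 5.40 and 5.78 in WKY and at 0 in all SHR libraries. ENSRNOT00000003188 was at 2.49, 3.12, 1.88, 2.38 and 2.62 in WKY, with 0.325 in SHR 1 and 0 in the other SHR libraries. ENSRNOT00000085468 was at 1.80, 3.08, 1.80, 2.97 and 2.68 in WKY and at 0 in all SHR libraries. The last 3 transcripts thus had low WKY values, with no library far from the others. The files assign Ensembl transcripts to no locus, so other transcripts of the same genes were not examined for these 11.

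The values nearest the thresholds show how narrow the choice was at its edges. The smallest WKY minimum was that of MERGE.22018.62, at 2.92, 2.02, 1.65, 1.80 and 1.00 in WKY 1 to 5 and at 0 in all SHR libraries. MERGE.34538.7 was at 1.36, 1.00, 1.73, 2.32 and 1.33 in WKY and at 0.0391, 0.0241, 0.468, 0 and 0 in SHR, so it lay near both thresholds. MERGE.19253.1 was at 1.38, 1.72, 1.00, 1.13 and 1.08 in WKY and at 0.221, 0.186, 0, 0 and 0.295 in SHR. MERGE.22663.1 was at 1.08, 1.01, 1.31, 1.38 and 1.13 in WKY and at 0.400, 0.367, 0.358, 0.402 and 0.339 in SHR, low in both strains. Just outside the WKY threshold, through WKY 4 alone, were MERGE.14569.1 and MERGE.11510.2. MERGE.14569.1 was at 1.11, 1.10, 1.32, 0.994 and 1.10 in WKY and at 0.128 in SHR 1 and 0 in the other SHR libraries. MERGE.11510.2 was at 1.89, 2.05, 3.37, 0.987 and 2.86 in WKY and at 0, 0.123, 0.0295, 0 and 0.124 in SHR.

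Just inside the SHR threshold were MERGE.34538.7 and 3 further transcripts. MERGE.2417.1 was at 2.10, 1.11, 1.95, 1.60 and 1.198 in WKY and at 0, 0.356, 0.358, 0.189 and 0.453 in SHR. MERGE.15752.1 was at 1.84, 3.20, 1.78, 3.04 and 1.55 in WKY and at 0.297, 0.377, 0.446, 0.303 and 0.376 in SHR. ENSRNOT00000006185 was at 2.92, 1.9998, 1.45, 1.43 and 1.87 in WKY and at 0.381, 0.411, 0.446, 0.441 and 0.388 in SHR. The last 2 were thus above 0 in every SHR library. Just outside, through a single SHR library each, were MERGE.18608.23, at 1.08, 1.31, 1.90, 1.81 and 1.43 in WKY and 0.0379, 0.0518, 0.358, 0.502 and 0.219 in SHR, and MERGE.18404.2, at 4.05, 4.20, 4.98, 12.4 and 3.15 in WKY and 0.151, 0.516, 0.156, 0.110 and 0.175 in SHR. The values that decided the choice thus lay close together on either side of a threshold. In WKY, MERGE.18404.2 stood apart, at a mean of 5.75 beside 1.55 to 2.28 for the transcripts just inside the SHR threshold.

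The 61 assembled isoforms fell into 3 classes by what else was listed at their locus, a grouping made with the values in view. For 22 isoforms of 21 loci, no isoform outside the 72 was listed. For 21 isoforms of 17 loci, others were listed but none reached 1 in all 5 SHR libraries. For 18 isoforms of 13 loci, another isoform reached at least 1 in all 5 SHR libraries, and this count was 19 when SHR 4 was not required to reach 1 and 29 when the SHR mean had to be at least 1. Loci with a single listed isoform were 39.2% of the 51 loci, compared with 61.2% of the 14180 assembled loci listed for WKY and SHR. The 5 loci MERGE.22018, MERGE.18608, MERGE.7421, MERGE.18551 and MERGE.19343 held 15 of the 61 isoforms, so the isoforms are not independent of each other.

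In the first class the locus sum is made of the chosen isoforms alone, so its low level in SHR follows from the choice. It is given as a description, at a median of 1.28% of the WKY sum (range 0% to 17.1%). MERGE.19343 was the locus of this class with 2 listed isoforms, both among the 72. MERGE.19343.1 stood at 3.15, 4.63, 4.52, 4.41 and 3.61 in WKY with a highest SHR value of 0.0113, and MERGE.19343.2 at 2.41, 2.62, 2.55, 2.44 and 2.22 in WKY and 0 in SHR. MERGE.25958.1 was at 7.75, 11.3, 8.51, 9.16 and 4.71 in WKY and at 0.0139 or less in SHR, and the next locus number, MERGE.25959, held MERGE.25959.1 at 2.54, 3.49, 2.28, 2.37 and 2.14 in WKY and at 0.104 or less in SHR. The loci MERGE.18411 and MERGE.18412 and the loci MERGE.18608 and MERGE.18609 also had successive numbers. Whether these numbers follow the position in the genome is not stated in the files. No member of this class is listed for SHR+Nef.

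In the second class the sum over all isoforms in SHR was at a median of 25.2% of that in WKY (range 0.191% to 102%), and the WKY and SHR sums overlapped at 8 of 17 loci. The share of overlaps over all assembled loci was not counted, so this count is not read as a result. These sums include the isoforms among the 72, which made up a median of 69.7% of the WKY sum (range 14.3% to 95.6%). The class was also defined by the SHR values of the other isoforms. The low SHR sums thus follow in part from the choice and from that definition, and are given as a description. MERGE.22018 was the largest locus of this class, with 56 listed isoforms, 5 of them among the 72. Its other 51 isoforms summed to 161, 139, 58.8, 59.6 and 75.6 in WKY and to 21.6, 9.08, 41.2, 16.2 and 57.2 in SHR. The highest SHR sum lay just below the lowest WKY sum, and the difference did not pass the test (log2 difference -1.87, SE 0.48, limma adjusted p = 0.129). At MERGE.7423, the other isoform was at 0.0689, 0.0684, 3.66, 3.90 and 0.0275 in WKY 1 to 5 and at 0.0520 or less in SHR. It was thus near 0 in WKY 1, 2 and 5 as well, and it did not pass the filter to be tested. MERGE.7423.1 made up 87.5% of the WKY sum, so the low SHR sum of this locus follows mainly from the choice.

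The third class is defined by another isoform present in SHR, so its SHR sums are above 0 by that definition and are not compared with those of the other classes. The sum over all isoforms in SHR was at a median of 65.9% of that in WKY (range 16.0% to 137%). The WKY and SHR sums overlapped at 10 of 13 loci. These sums include the isoforms among the 72, and the share of overlaps over all assembled loci was not counted. In WKY, the isoforms among the 72 made up a median of 54.2% of the locus sum in this class (range 9.19% to 94.0%).

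**Figure D2:**
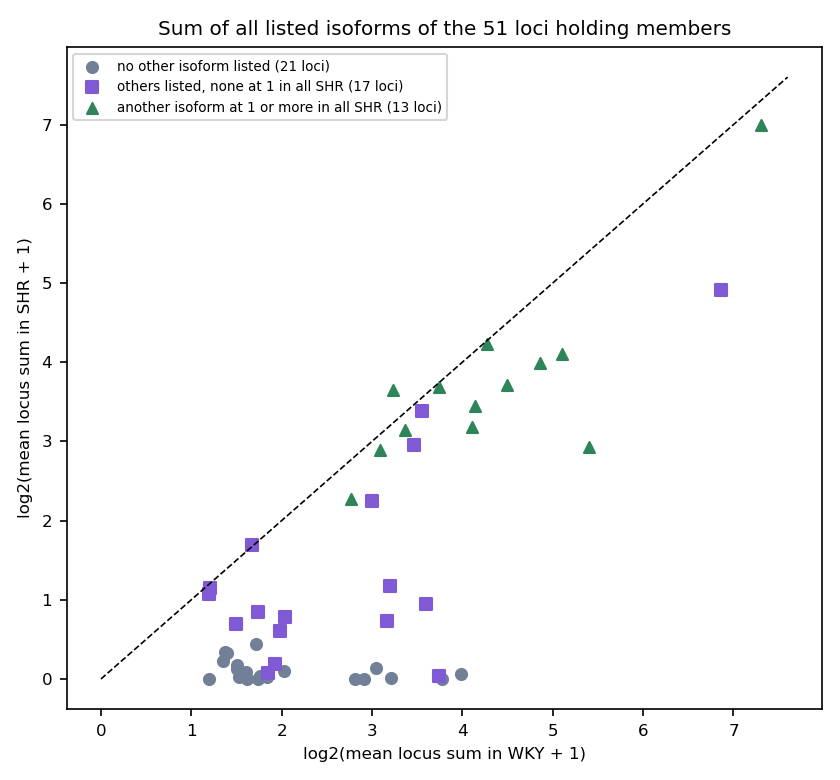
Mean sum of all listed isoforms in SHR (vertical) against WKY (horizontal) for each of the 51 loci, both on the log2(sum + 1) scale, with a dashed line where the strains are equal. Loci with no other listed isoform (circles) lie along the bottom, and loci with another isoform at 1 or more in all SHR libraries (triangles) lie above them, both by the way the classes are defined. The spread of the triangles, from 16.0% to 137% of the WKY sum, is what the plot adds.

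The choice did not use the other isoforms of the 51 loci, so these were tested. Of 178 listed for WKY and SHR, 78 passed the filter on low values, and limma called 7 higher and 9 lower in SHR, or 8.97% and 11.5% of those tested, beside 0.705% and 0.822% over all transcripts (adjusted p under 0.05). In all, 446 of 29204 transcripts were called (1.53%). The median difference of the 78 on the log2(value + 1) scale was 0.39, beside -0.03 over all transcripts. These isoforms share reads with those among the 72, so their values are not fully independent of the choice. Of the 9 lower isoforms, 6 are not listed for SHR+Nef, and their direction is set by the listing described further on. The 11.5% includes these 6, so it is not a free comparison with 0.822%. Of the 7 higher isoforms, MERGE.13674.2, MERGE.17697.8, MERGE.18608.80 and MERGE.3999.1 had WKY means of 0.349, 0, 0.178 and 0.0378. With no WKY value at 1, they passed the filter through SHR and SHR+Nef libraries alone, which favoured a higher SHR value. The 8.97% includes them, so it is not a free comparison with 0.705% either. Many calls came from the single locus MERGE.18608. Its isoforms MERGE.18608.1, MERGE.18608.80 and MERGE.18608.90 were higher. MERGE.18608.19, MERGE.18608.23, MERGE.18608.49, MERGE.18608.50 and MERGE.18608.55 were lower. The count of 16 calls was 10, 9, 10 and 10 without WKY 1, 2, 3 and 4, and 16 without SHR 4. Part of this drop came from the filter. MERGE.18608.23 and MERGE.18609.8 were below 1 in all SHR libraries and are not listed for SHR+Nef. Without any 1 of the WKY libraries they could not reach 1 in 5 libraries and were not tested. In all, 11 of the 16 kept their call under every alternative that tested them.

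The 7 isoforms that rose in SHR were MERGE.13674.2, MERGE.17697.8, MERGE.18608.1, MERGE.18608.80, MERGE.18608.90, MERGE.3999.1 and MERGE.7421.2. MERGE.3999.1 stood at 0.00898 to 0.0648 in WKY and at 7.21, 6.53, 6.94, 3.58 and 8.41 in SHR 1 to 5, so the groups did not overlap (log2 difference 2.82, SE 0.36, limma adjusted p = 0.00049). It passed the filter through SHR and SHR+Nef libraries alone, so its p-value lends no separate weight to the direction. MERGE.3999.1 was thus the main isoform of the locus in SHR and MERGE.3999.2 that in WKY, and the locus summed to 9.31 ± 0.544 in the WKY and 7.81 ± 2.44 in the SHR libraries (SD, n = 5 each). In SHR+Nef it stood at 7.48, 1.05, 7.30, 8.10 and 7.85 in SHR+Nef 1, 2, 4, 5 and 6, like SHR in all but SHR+Nef 2. In that library MERGE.3999.3, an isoform not listed for WKY and SHR, stood at 10.5, and at 0.008 or less in the other SHR+Nef libraries.

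At MERGE.7421, 2 isoforms were among the 72. MERGE.7421.1 was at 3.69, 3.91, 7.65, 2.65 and 2.71 in WKY, MERGE.7421.4 was at 1.51 to 2.94 in WKY, and both were at 0 in all SHR libraries. MERGE.7421.2 was at 1.07, 1.09, 3.07, 1.35 and 1.10 in WKY and at 8.10, 10.1, 7.96, 19.5 and 11.0 in SHR, with no overlap (log2 difference 2.27, SE 0.24, limma adjusted p = 9.8e-05). The highest of these SHR values was that of SHR 4. Of these 3 isoforms, 1 was thus present in SHR, at a higher level than in WKY. In SHR+Nef MERGE.7421.2 stood at 9.87 ± 0.897 (SD, n = 5).

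At MERGE.13674, a locus of 2 isoforms, the isoforms stood in opposite order in the strains. MERGE.13674.1 was at 5.43, 4.12, 6.86, 4.86 and 5.91 in WKY and at 0.0506 to 0.352 in SHR. MERGE.13674.2 was at 0.376, 0.487, 0.232, 0.481 and 0.171 in WKY, at 5.58, 3.75, 3.26, 2.64 and 3.13 in SHR, and at 3.15 to 5.95 in SHR+Nef (SHR vs WKY log2 difference 1.77, SE 0.19, limma adjusted p = 0.00011). MERGE.17697 had a like pair. MERGE.17697.5 was at 3.39, 3.35, 14.9, 11.9 and 16.1 in WKY and at 0.191 or less in SHR, and MERGE.17697.8 had a listed value of 0 in each WKY library and stood at 5.72 to 14.8 in SHR (limma adjusted p = 1.3e-07). Both MERGE.13674.2 and MERGE.17697.8 passed the filter through SHR and SHR+Nef libraries alone. Their p-values thus lend no separate weight to the direction.

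**Figure D3:**
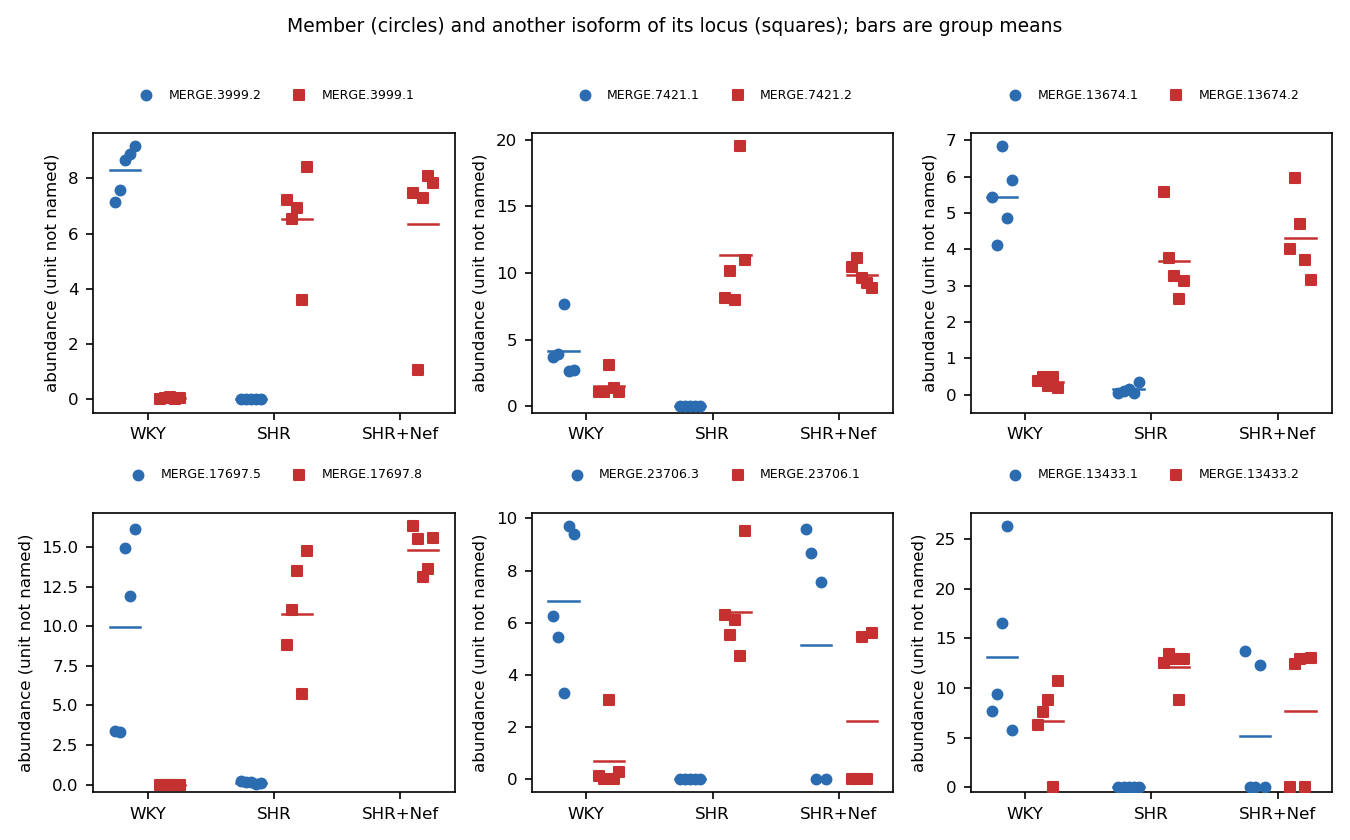
Abundance of an isoform among the 72 (circles) and of another isoform of its locus (squares) in each library, at 6 loci picked after their values were seen, with bars at group means. In the first 4 panels the circles are high in WKY and near 0 in SHR, with no SHR+Nef value listed, and the squares are higher in SHR than in WKY, where MERGE.7421.2 still stood at 1.07 to 3.07. In the panels of MERGE.23706 and MERGE.13433 the SHR+Nef libraries divide between the isoforms.

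The other isoforms of each locus were also summed and tested between SHR and WKY. Of 30 loci with such a sum, 20 passed the filter and 5 passed the test, 4 higher and 1 lower in SHR, beside 0.782% higher and 0.625% lower over all 9595 loci tested. At 12 of the 20 loci the unadjusted p was under 0.05, but the share over all 9595 loci was not counted. This count is therefore not read as a result. The sums were higher in SHR at MERGE.13674 (log2 difference 1.77, SE 0.18, limma adjusted p = 0.00043) and MERGE.7421 (1.92, SE 0.26, adjusted p = 0.0038), following the isoforms described above. The sum of MERGE.13674 was at 0.171 to 0.487 in WKY, so it passed the filter through the SHR libraries alone. Its direction was thus set by the filter, and its p-value lends no separate weight. At MERGE.23706 the rest of the locus is MERGE.23706.1, at 0.148, 0.00578, 3.06, 0.00571 and 0.265 in WKY and at 6.28, 5.52, 6.09, 4.73 and 9.51 in SHR (log2 difference 2.35, SE 0.37, limma adjusted p = 0.0096). As a transcript in the fit with SHR+Nef, where its values were more spread, MERGE.23706.1 did not pass (limma adjusted p = 0.077). At MERGE.3999 the sum was at 0.0405 to 2.04 in WKY and at 3.58 to 9.64 in SHR (log2 difference 2.21, SE 0.36, limma adjusted p = 0.012). Without SHR 1, 2, 3 or 5 the limma adjusted p of MERGE.3999 was 0.053 to 0.059, with the direction kept. Without SHR 1, 2 or 3 the count was 2 loci, and without SHR 5 it was 3, while without SHR 4 it was 5. The sum of MERGE.13674 did not pass the filter without any 1 of the SHR libraries and was then not tested.

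At MERGE.18551 the sum of the remaining isoforms was lower in SHR. Its isoforms among the 72 were MERGE.18551.4, at 6.54, 24.4, 11.8, 8.93 and 6.79 in WKY, and MERGE.18551.9, at 6.20, 3.73, 3.18, 2.38 and 1.24 in WKY, and both were at 0.0257 or less in SHR. The other 7 isoforms summed to 12.6, 17.4, 28.2, 25.7 and 46.7 in WKY and to 4.64, 4.03, 7.68, 5.56 and 11.0 in SHR, with no overlap (log2 difference -1.78, SE 0.35, limma adjusted p = 0.031). The limma adjusted p was 0.053 to 0.115 without WKY 2, 3, 4 or 5 or without SHR 1, 2, 3 or 4, so the call does not stand without any of these libraries. Its isoform MERGE.18551.5 was at 8.67 to 19.4 in WKY and at 0, 0, 3.60, 0 and 2.02 in SHR (log2 difference -3.19, SE 0.69, limma adjusted p = 0.031), and 0.059 to 0.111 without any 1 of the WKY libraries or without SHR 1, 2 or 4. Of the other 3 isoforms of this locus that were tested, 0 were called by limma and 1, MERGE.18551.3, had an unadjusted p under 0.05. MERGE.18551.3 had a mean of 0.994 in WKY and 2.90 in SHR (log2 difference 1.13, SE 0.42, limma adjusted p = 0.344), MERGE.18551.11 had 1.61 and 1.57, and MERGE.18551.6 had 2.08 and 0.960. In SHR+Nef MERGE.18551.5 stood at 10.4, 11.1, 6.86, 0.548 and 0 in SHR+Nef 1, 2, 4, 5 and 6.

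MERGE.18608, with 53 listed isoforms, held 4 of the 72. MERGE.18608.64 was at 8.86, 2.15, 8.43, 6.92 and 2.35 in WKY, MERGE.18608.37 at 2.88 to 7.91, MERGE.18608.36 at 2.42 to 4.37 and MERGE.18608.83 at 1.77 to 4.11. The sum of the other 49 isoforms was 140 ± 18.8 in the WKY and 126 ± 32.1 in the SHR libraries (SD, n = 5 each), with overlapping values. Within this sum, isoforms moved in both directions. MERGE.18608.90 was at 1.03, 3.86, 2.69, 2.17 and 4.09 in WKY and at 16.9, 10.9, 15.6, 31.5 and 15.01 in SHR (log2 difference 2.32, SE 0.31, limma adjusted p = 0.00076). MERGE.18608.55 was at 13.8, 14.1, 14.6, 12.0 and 10.8 in WKY and at 1.31, 1.47, 1.71, 0.905 and 3.05 in SHR (log2 difference -2.43, SE 0.24, limma adjusted p = 4.7e-05). Their SHR+Nef means were 18.7 ± 5.40 and 2.84 ± 1.07 (SD, n = 5 each), on the side of SHR for both. MERGE.18608.1, which rose in SHR, had a limma adjusted p of 0.028, and 0.052 to 0.114 without any 1 of the WKY libraries or without SHR 1, 3 or 5.

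At MERGE.18609, the isoform MERGE.18609.9 was at 1.76, 3.56, 4.35, 3.78 and 3.83 in WKY and at 0 in SHR. The sum of the other 7 isoforms was 29.99 ± 6.82 in the WKY libraries and 16.2 ± 7.30 in the SHR libraries (SD, n = 5 each), which did not pass (limma adjusted p = 0.192). The value of SHR 4, 29.2, lay within the WKY range of 21.1 to 39.4, and the other 4 SHR libraries stood at 12.1 to 14.0. Of these isoforms, MERGE.18609.8 was at 12.4 to 25.2 in WKY and at 0 to 0.859 in SHR, outside the SHR threshold through SHR 1 alone.

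The SHR+Nef files bear on whether these transcripts are absent from the SHR strain as such, since the SHR+Nef rats are SHR rats. They list 10 of the 72 (13.9%), beside 45.3% of all 5072 transcripts with an SHR mean below 0.5 and 47.5% of the 59 others that also had at least 1 in all WKY libraries. In the values themselves, no transcript that the SHR+Nef files share with the other files had means under 0.5 in both SHR and SHR+Nef, and the 72 have SHR means below that. A transcript among the 72 is therefore listed for SHR+Nef only if its SHR+Nef mean was at least 0.5. For the other 62 no SHR+Nef values were at hand. The direction from SHR to SHR+Nef in the 10 is likewise set by the listing.

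Of these 10 transcripts, 9 reached 1 in at least 1 SHR+Nef library and 0 reached 1 in all 5. The label of transcripts present only in the normotensive strain thus does not hold for these 9. MERGE.13433.1 stood at 7.65, 9.38, 16.6, 26.3 and 5.81 in WKY, at 0 in all SHR libraries, and at 13.7, 0, 0, 12.3 and 0 in SHR+Nef 1, 2, 4, 5 and 6. MERGE.23706.3 stood at 6.25, 5.44, 3.30, 9.72 and 9.38 in WKY, at 0.0272 or less in SHR, and at 9.60, 8.67, 0, 7.55 and 0 in SHR+Nef. In both, an SHR+Nef library was either within the WKY range or at 0. MERGE.182.5 was at 9.83, 12.4, 19.2, 15.8 and 6.76 in WKY, at 0.0466 or less in SHR, and at 2.13, 11.9, 9.69, 0 and 0 in SHR+Nef. MERGE.493.1 was at 3.12, 4.74, 5.81, 7.76 and 7.15 in WKY, at 0.0213 or less in SHR, and at 0, 0.0129, 0.124, 11.7 and 8.42 in SHR+Nef. The SHR+Nef libraries that were high thus differed from transcript to transcript.

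**Figure D4:**
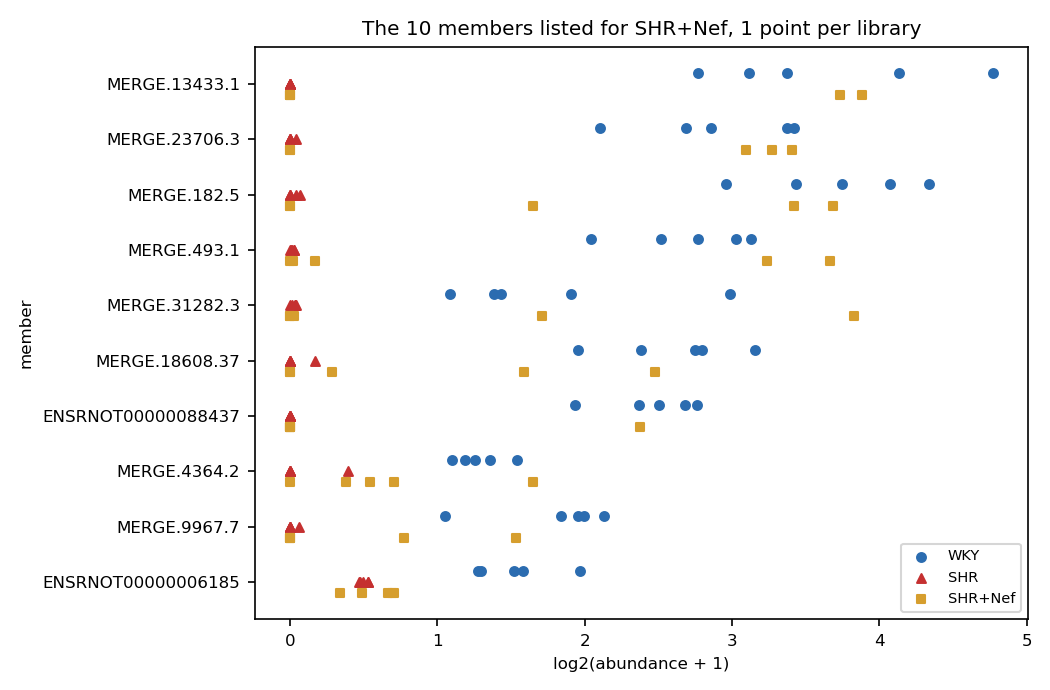
Abundance on the log2(value + 1) scale of the 10 transcripts listed for SHR+Nef, with 1 point per library for WKY (circles), SHR (triangles) and SHR+Nef (squares). The SHR points lie at or near 0 by the choice of transcripts, and in 9 of the 10 rows at least 1 SHR+Nef point lies at an abundance of 1 or more while others lie near 0.

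The other isoforms of MERGE.13433 and MERGE.23706 were at the opposite level in the same SHR+Nef libraries. MERGE.13433.2 stood at 0, 12.4, 12.9, 0 and 13.0 in SHR+Nef 1, 2, 4, 5 and 6, and at 12.5, 13.4, 13.0, 8.84 and 13.0 in SHR 1 to 5. It was at 0 in the 2 SHR+Nef libraries where MERGE.13433.1 was high, and high in the 3 where that isoform was at 0. In WKY both isoforms were present in 4 libraries, and in WKY 4, where MERGE.13433.1 was highest, MERGE.13433.2 stood at 0.0106. MERGE.23706.1 stood at 0.00502, 0.00509, 5.46, 0.00532 and 5.61 in the same SHR+Nef libraries, near 0 in the 3 where MERGE.23706.3 was high. At both loci, 1 of these 2 isoforms was thus at or near 0 in each SHR and SHR+Nef library.

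The remaining 6 of the 10 had lower SHR+Nef means. MERGE.31282.3 stood at 13.2 in SHR+Nef 1, 2.28 in SHR+Nef 5 and 0.0196 or less in the other 3, and at 1.13, 6.92, 2.75, 1.71 and 1.61 in WKY. MERGE.18608.37 stood at 4.56, 0, 2.01, 0.218 and 0 in SHR+Nef, MERGE.9967.7 at 1.90, 0, 0, 0.713 and 0, and MERGE.4364.2 at 0, 0.630, 0.300, 0.460 and 2.14. ENSRNOT00000088437 stood at 4.20 in SHR+Nef 1 and at 0 in the other 4, which matches its 0 in all SHR libraries. ENSRNOT00000006185 was the exception to this uneven pattern, at 0.587, 0.402, 0.632, 0.614 and 0.267 in SHR+Nef and 0.381 to 0.446 in SHR, against 1.43 to 2.92 in WKY. Over all 10, 17 of 50 SHR+Nef values reached 1, and by library 7, 2, 2, 4 and 2 of the 10 did so in SHR+Nef 1, 2, 4, 5 and 6. The sum of the 10 was 41.8 to 80.6 in the WKY libraries and 0.446 to 0.839 in the SHR libraries. In the SHR+Nef libraries it was 10.8 to 49.9, highest in SHR+Nef 1.

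Between SHR+Nef and SHR, limma called 0 of these 10 (adjusted p 0.732 to 0.908), beside 2 of 29095 transcripts tested (0.00687%). The unadjusted limma p was under 0.05 for 4 of the 10. The share over all transcripts was not counted, so this count is not read as a result. Their log2 differences ranged from 0.08 to 1.95, above 0 by the choice and the listing, and the SHR values in this test are those the choice used. The lowest adjusted p was that of MERGE.23706.3 (log2 difference 1.95, SE 0.64, limma adjusted p = 0.732), whose SHR+Nef values lay at 0 in 2 libraries. This comparison shares its SHR libraries with that between SHR and WKY. The difference was not detectable beyond the spread between SHR+Nef libraries, and whether it is absent cannot be read from this test.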

How the data were processed

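The labels' protocols name TRIzol extraction, removal of ribosomal RNA and NEB library kits for total RNA of the abdominal aorta. For each library the authors deposited a table of signal values, an abundance of each transcript in a unit that is not named. The submitters' processing notes name limma, without a version, and the mouse build mm10, while the Ensembl IDs carry the rat prefix. Aligner, assembler, annotation and estimator: not given in the sources used here. Library sums were 496460 to 746274, which are not depths, so no counting intervals are given.

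The limma test (3.58.1, R 4.3.3, trend and robust, two-sided) ran on log2(value + 1) for transcripts that reached 1 in at least 5 libraries, in a single model of the 3 groups (12 residual degrees of freedom). Where a transcript is not listed for SHR+Nef, WKY and SHR alone entered its fit, before moderation over all transcripts. Sums of the other isoforms per locus used WKY and SHR (8 residual degrees of freedom). Benjamini-Hochberg adjustment ran over all features tested, with calls at 0.05. This scale understates the change of low transcripts. The fits were tested on simulated data. No library looked like a copy of another.

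The 72 transcripts, lists and tests were chosen with earlier results of these data known. Values in every library are given for the first 4 Ensembl and first 4 assembled transcripts by lowest WKY value, the 4 highest in SHR+Nef and those at the thresholds. Loci described are the 4 with the highest SHR sum of other isoforms and those whose sum passed. Others named were chosen after their values were seen. Another isoform counted as expressed in SHR at 1 or more in all 5 SHR libraries. Alternatives were other thresholds, filters, scalings, a pseudocount of 0.1, limma options, a replicate block and leaving out each library. Matplotlib 3.10.9 in Python 3.11.15 drew the figures.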

Additional observations from a re-analysis of the deposited data

Results flagged for a closer look

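Dixon's test was run on 85 sets of 5 values. These were the WKY values of the 72 transcripts, the SHR+Nef values of those listed, and the sums over all of them. In 7 sets a single library lay far from the other 4, and in 6 of these it was high. The usual chance rate of about 5% does not apply. The choice holds the WKY values at 1 or more, and the listing selected the SHR+Nef sets. The SHR values of single transcripts were not searched, since the choice holds them below 0.5.

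In WKY, MERGE.22018.57 stood at 21.0 in WKY 1 and at 1.17 to 2.35 in the other 4 libraries. MERGE.7421.1 stood at 7.65 in WKY 3, beside 2.65 to 3.91 in the others. MERGE.29491.6 was the case of a low library, at 1.79 in WKY 3 and 10.2 to 11.9 in the others. MERGE.31282.3 stood at 6.92 in WKY 2, beside 1.13 to 2.75, and MERGE.23233.1 at 1.73 in WKY 4, beside 1.15 to 1.22. In SHR+Nef, ENSRNOT00000088437 stood at 4.20 in SHR+Nef 1 and at 0 in the other 4, and MERGE.31282.3 at 13.2 in SHR+Nef 1, beside 0 to 2.28 in the others.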

How the results depend on the processing

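The number of transcripts that met the thresholds moved with them, from 72 to 126 with SHR below 1, 27 with SHR at exactly 0 and 22 with WKY at least 2 and SHR below 0.25, and it was 77 to 91 without any 1 library. Median scaling gave 70, of which 69 were among the 72. The number with another isoform expressed in SHR went from 18 to 29 on the SHR mean. With a filter of at least 5 in 5 libraries, fewer features were tested, and limma called 9 of 26 other isoforms and 2 of 12 locus sums. Leaving out 1 library gave 9 to 17 calls among other isoforms and 2 to 5 among the sums, and 0 among the transcripts listed for SHR+Nef. Of 16 isoforms called, 11 kept their call under every alternative that tested them, and MERGE.18551.5, MERGE.18608.1, MERGE.18608.23, MERGE.22018.31 and MERGE.22018.73 did not, the last under the replicate block alone (adjusted p = 0.051). The sum of MERGE.3999 did not pass with a pseudocount of 0.1 (adjusted p = 0.077). The SHR+Nef difference of ENSRNOT00000088437 was 0 to 0.59 on the log2 scale without any 1 library, and 0 without SHR+Nef 1, the single SHR+Nef library above 0. Same-numbered libraries of different groups correlated at -0.067 to 0.091 in their deviations, so no pairing by number was evident. Such low correlations cannot exclude a pairing. A replicate block gave 11 calls among other isoforms, 5 among sums and 0 among the transcripts listed for SHR+Nef. A fit of SHR and SHR+Nef alone tested none of the 72 transcripts, so it gave no value. The causes of these changes were not tested beyond the construction stated. Depth is unknown, and values near 0 cannot be told from absence.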
